A study of Homo sapiens with 6 samples.

Results

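Eph receptors are the receptor tyrosine kinases that sense neighbouring cells, and ephrins are their ligands on the surface of those neighbours. The 10 members described here were followed in the RNA of OVCAR8 cells, a line from high-grade serous ovarian cancer, after DZNep treatment or EZH2 silencing. They are 5 receptors (EPHA2, EPHA4, EPHB2, EPHB3 and EPHB4) and 5 ephrins (EFNA1, EFNA4, EFNA5, EFNB1 and EFNB2), and all 10 are among the 14930 genes of the deposited matrix. The members came from a list of gene names, with EPHA2 chosen by its own measured values, which were higher than control with both treatments. EPHA2 is therefore described below without a test in every comparison, since the same samples were used to choose it, and the other members were listed as relatives of EPHA2.

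Binding between an Eph receptor and an ephrin needs contact between cells and can signal in both directions, forward into the cell with the receptor and in reverse into the cell with the ephrin. Ephrins of the A class are held in the membrane by a lipid anchor and mostly bind EphA receptors, whereas ephrins of the B class cross the membrane and mostly bind EphB receptors. The signals act on the actin cytoskeleton and are known for their part in cell repulsion, adhesion, boundaries between tissues and blood vessel formation. In epithelial cancers EPHA2 is the best studied member, with EFNA1 as its usual ligand.

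The study had 3 groups of 2 samples. Control cells (Ctrl) received DMSO, the solvent. DZNep cells received 5 µM DZNep, an inhibitor of S-adenosylhomocysteine hydrolase that lowers EZH2 protein and inhibits histone methylation. The shEZH2 cells carried hairpin 2 against EZH2 under a doxycycline-inducible promoter and received 1 µg/mL doxycycline. RNA was collected after 72 hours in all groups. The units of the doses are those in the text of the study, and the sample labels give them in mM and mg/mL. Whether the control cells carried a hairpin or received doxycycline is not stated in the sources used here, so EZH2 silencing cannot be told apart from doxycycline and the hairpin line itself, and a single hairpin was used. Nothing states that the replicates came from separate cultures, so the p-values measure only the spread between these samples, which may be technical.

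The hairpin is shown first because it defines the shEZH2 group. Its target of 21 bases had 1 exact match in GRCh38, at chr7:148832703-148832723 on the minus strand, in coding exon 4 of EZH2. Among the transcripts of the annotation it matched those of EZH2, and 0 genes of the Eph and ephrin family held it.

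EZH2 hairpin 2 target: ccaacacaagtcatcccatta

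EZH2, the methyltransferase that DZNep and the hairpin were used against, had deposited values of 36 and 42 in Ctrl, 26 and 26 with DZNep, and 18 and 18 with shEZH2. No treated sample reached either control value. Its log2 fold change was -0.63 with DZNep (SE 0.18, adjusted p = 0.026 from limma) and -1.12 with shEZH2 (SE 0.18, adjusted p = 0.016 from limma). The deposited values of each sample add up to between 999956 and 1000068, so they were scaled to a common total and are not read counts, and the sequencing depth is unknown. Changes below are on the scale of log2(value + 1) after scaling with TMM factors between 0.919 and 1.115. They were tested with limma for the 9671 genes listed at 10 or more in 2 or more samples, and a gene was called at a Benjamini-Hochberg adjusted p under 0.05 over all of these genes. Of the epithelial and ovarian markers, KRT7, KRT8 and KRT18 were abundant, and WT1 and CDH1 were near 0 in control cells. CDH1 was listed at 1 and 0 in Ctrl, 7 and 8 with DZNep, and 1 and 2 with shEZH2. WT1 was listed at 2 and 1, 2 and 2, and 1 and 1. MUC16 was not listed under this name in the matrix. The summed value of 7 of 8 such markers was 2427 to 3037 in Ctrl, 7372 to 8547 with DZNep and 3456 to 3458 with shEZH2. Fibroblast markers (3 of 5 with values) summed to 25 to 28, 53 to 69 and 46 to 53. The higher fibroblast sum came from PDGFRB, with means of 11.5 in Ctrl, 49 with DZNep and 35.5 with shEZH2. COL1A1 had means of 14.5, 10.5 and 13.5, and LUM of 0.5, 1.5 and 0.5. Leukocyte markers (2 of 4) summed to 66 to 71, 17 to 19 and 30 to 33, nearly all of it CD68. The higher epithelial sum with DZNep came from KRT8 and KRT18, with means of 918.5 and 1236 in Ctrl, 3293 and 4095.5 with DZNep, and 1489 and 1591.5 with shEZH2. KRT7 had means of 548, 544 and 352.5, PAX8 of 18, 11.5 and 14, and EPCAM of 9.5, 6 and 7.5. Endothelial markers (2 of 4) summed to at most 4 in any sample. The part of these marker changes in the results below was not tested, and in bulk RNA fewer cells of a kind and less RNA per cell cannot be told apart.

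EPHA2 values were far higher with both treatments than in control cells, which is the property it was chosen by. EPHA2 encodes a receptor of the A class and lies on chromosome 1 of GRCh38 (chr1:16124337-16156069, minus strand, 17 exons in the canonical transcript of GENCODE v44). It was listed at 37 and 31 in Ctrl, 305 and 283 with DZNep, and 150 and 131 with shEZH2. The 3 groups did not overlap, with control cells lowest, shEZH2 cells between and DZNep cells highest. Its log2 fold change was 3.01 with DZNep (SE 0.20, n = 2), or 8.05-fold, and 1.97 with shEZH2 (SE 0.20, n = 2), or 3.91-fold. Counted from the highest log2 fold change of the 9671 tested genes, EPHA2 stood at position 24 with DZNep and at position 6 with shEZH2. Leaving out any single sample kept these values between 2.81 and 3.21 with DZNep and between 1.76 and 2.17 with shEZH2. An antisense gene, EPHA2-AS1, overlaps the 5′ end of EPHA2 by 894 bases and was not listed under this name in the matrix.

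Between the treated groups, EPHA2 had a mean of 140.5 with shEZH2 against 294 with DZNep, a log2 difference of -1.04 (SE 0.20, n = 2). With single samples left out, this difference lay between -1.19 and -0.86. Of the 6 other members that could be tested, limma called 0 in this comparison and 0 had an unadjusted p under 0.05, where 4.56% of all tested genes were called lower and 4.87% higher.

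**Figure D1:**
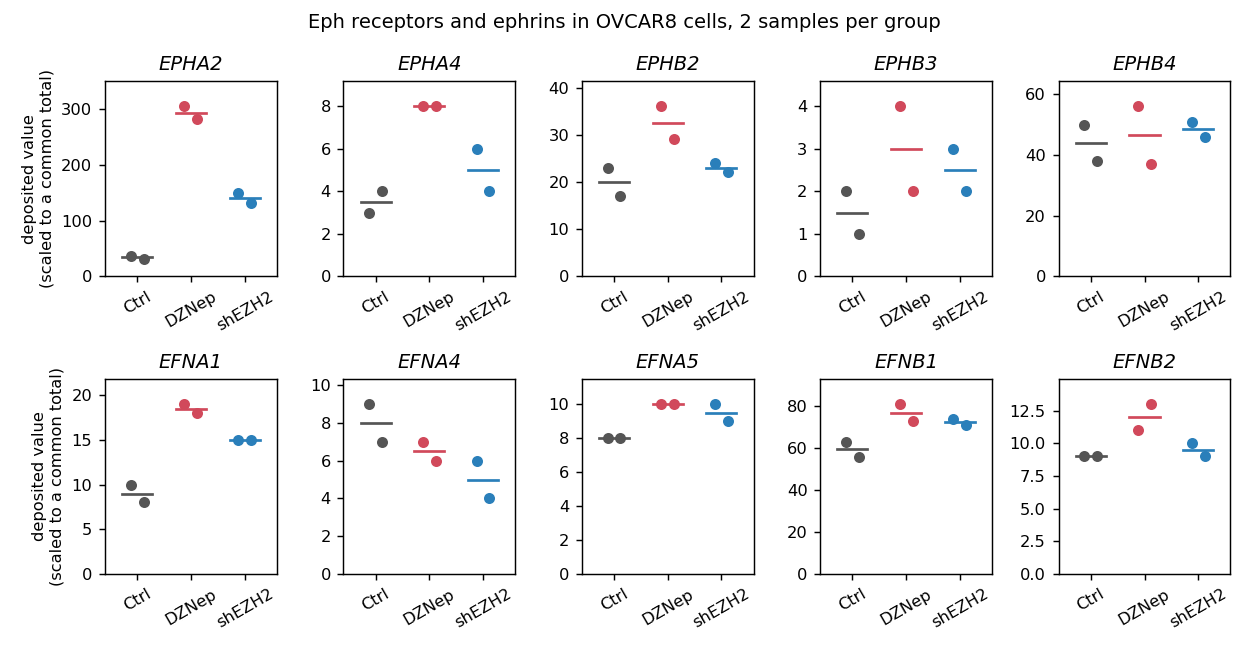
Deposited values (vertical axis, scaled to a common total per sample, no unit) of the 10 family members, with 1 point per sample, 2 samples in each of the groups Ctrl, DZNep and shEZH2, and a line at the group mean. EPHA2 goes from 31 to 37 in control cells to 283 to 305 with DZNep and 131 to 150 with shEZH2, while the groups lie close together or overlap for EPHB3, EPHB4 and EFNB2.

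EPHA4, an A-class receptor that also binds ephrins of the B class, was at the low end of the table. It was listed at 3 and 4 in Ctrl, 8 and 8 with DZNep, and 6 and 4 with shEZH2. Both DZNep samples lay above both control samples, and shEZH2 replicate 2 had the same value as Ctrl replicate 2. EPHA4 did not pass the filter on low values and was not tested in the reported fit. In the fit with no filter, its log2 fold change with DZNep was 0.95 (SE 0.24, adjusted p = 0.019 from limma). With shEZH2 it was 0.36 in that fit (SE 0.24, adjusted p = 0.39 from limma). Rounding to whole numbers alone leaves its log2 ratio of means anywhere from 0.85 to 1.45 with DZNep and from 0.12 to 0.83 with shEZH2.

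The tested B-class receptors, EPHB2 and EPHB4, did not pass in any comparison. EPHB2, which is known for its part in guiding axons and placing cells in the intestinal crypt, had values of 23 and 17 in Ctrl, 36 and 29 with DZNep, and 24 and 22 with shEZH2. Both DZNep samples lay above both control samples, whereas the shEZH2 samples overlapped with control. The log2 fold change was 0.61 with DZNep (SE 0.26, adjusted p = 0.096 from limma) and 0.16 with shEZH2 (adjusted p = 0.73 from limma). The DZNep value of EPHB2 passed without Ctrl replicate 1 (0.90, adjusted p = 0.026), without DZNep replicate 2 (0.89, adjusted p = 0.033) and with the values as deposited (0.68, adjusted p = 0.046), in the same test. When replicate number entered as a block, its adjusted p from limma was 0.0095, in a fit that called 56.2% of all tested genes with DZNep.

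EPHB4, the receptor for EFNB2 that marks veins, had values of 50 and 38 in Ctrl, 56 and 37 with DZNep, and 51 and 46 with shEZH2. All 3 groups overlapped, and the DZNep samples enclosed both control samples. The log2 fold changes were -0.01 with DZNep (SE 0.30, adjusted p = 0.98 from limma) and 0.10 with shEZH2 (SE 0.30, adjusted p = 0.85 from limma). The sign of the DZNep value turned to 0.06 with the values as deposited. EPHB3, a receptor close to EPHB2, was listed at 2 and 1, 4 and 2, and 3 and 2 in Ctrl, DZNep and shEZH2. Its values were too low for the test.

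EFNA1, an A-class ephrin and the usual ligand of EPHA2, rose with DZNep. The gene lies on chromosome 1 (chr1:155127876-155134899, plus strand, 5 exons). Because 1 control sample reached 10, EFNA1 passed the filter on low values only with the treated samples where it was higher. It was listed at 10 and 8 in Ctrl, 19 and 18 with DZNep, and 15 and 15 with shEZH2. As for EPHA2, the 3 groups did not overlap and had the order control, shEZH2, DZNep. The log2 fold change was 0.90 with DZNep (SE 0.23, adjusted p = 0.014 from limma), or 1.87-fold. With shEZH2 it was 0.64 (SE 0.23), which did not pass (adjusted p = 0.11 from limma), and the direct difference between the treated groups was -0.27 (adjusted p = 0.49 from limma). In the fit with no filter on low values, the adjusted p of EFNA1 from limma was 0.018 with DZNep and 0.14 with shEZH2. The DZNep call was lost without Ctrl replicate 2 (0.69, adjusted p = 0.067) and without DZNep replicate 1 (0.75, adjusted p = 0.058), in the same limma test. When replicate number entered as a block, the shEZH2 change of EFNA1 had an adjusted p of 0.023 from limma. That fit called 28.7% of all tested genes with shEZH2. Replicate numbers did not deviate together in Ctrl and shEZH2 cells (correlation -0.0241), so this pass is not read as a call.

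EFNA1 was the 1 member called higher with DZNep among the 6 tested members other than EPHA2, against 22.3% of all tested genes, and 0 were called lower, against 20.4%. EFNA1, EFNA5 and EFNB2 entered the 6 only through treated samples, so the count is a description of these genes. With shEZH2, 0 of the 6 were called in either direction by limma and 1, EFNA1, had an unadjusted p under 0.05, while 3.83% of all tested genes were called higher and 4.53% lower. The share of all genes called with shEZH2, 8.35% in both directions, rested on having both shEZH2 samples: it was 0.374% without replicate 1, 0.363% without replicate 2 and 0.406% after they were averaged into 1. The methods of the study state a log2 fold change above 1 and p under 0.05, without saying whether p was adjusted. Read as a change above 1 in size with an unadjusted p under 0.05, these limits called none of the 6 with either treatment. That rule called 22.3% of all tested genes with DZNep, 5.29% with shEZH2 and 5.52% in the direct comparison. The median log2 fold change over all tested genes was 0.02 with DZNep, -0.01 with shEZH2 and -0.003 for shEZH2 less DZNep. With the values as deposited these medians were 0.085, 0.041 and -0.022. Both comparisons against control use the same control samples.

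Of the other A-class ephrins, EFNA4 was listed at 9 and 7 in Ctrl, 7 and 6 with DZNep, and 6 and 4 with shEZH2. Both shEZH2 samples lay below both control samples, the DZNep samples touched them, and no sample reached 10, so EFNA4 was not tested. EFNA5, a ligand known from the mapping of retinal axons, had values of 8 and 8, 10 and 10, and 10 and 9. Its treated samples lay above the control samples by 1 or 2 units of the rounded table, and it passed the filter only through them. The log2 fold changes of EFNA5 were 0.23 with DZNep (SE 0.20, adjusted p = 0.39 from limma) and 0.17 with shEZH2 (adjusted p = 0.60 from limma).

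The B-class ephrins did not pass in any comparison either. EFNB1, whose loss in humans gives craniofrontonasal syndrome, had values of 63 and 56 in Ctrl, 81 and 73 with DZNep, and 74 and 71 with shEZH2. Every treated sample lay above both control samples as deposited, but after TMM scaling DZNep replicate 2 (6.05 on the log2 scale) lay below Ctrl replicate 1 (6.12). EFNB1 had log2 fold changes of 0.30 with DZNep (SE 0.20, adjusted p = 0.27 from limma) and 0.23 with shEZH2 (adjusted p = 0.49 from limma). EFNB2, the ligand of EPHB4 that marks arteries, had values of 9 and 9, 11 and 13, and 10 and 9. Both DZNep samples lay above the control samples and shEZH2 replicate 2 equalled them. Like EFNA5, EFNB2 passed the filter only through treated samples. For EFNB2, limma gave log2 fold changes of 0.31 with DZNep (SE 0.19, adjusted p = 0.22) and 0.02 with shEZH2 (adjusted p = 0.95).

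**Figure D2:**
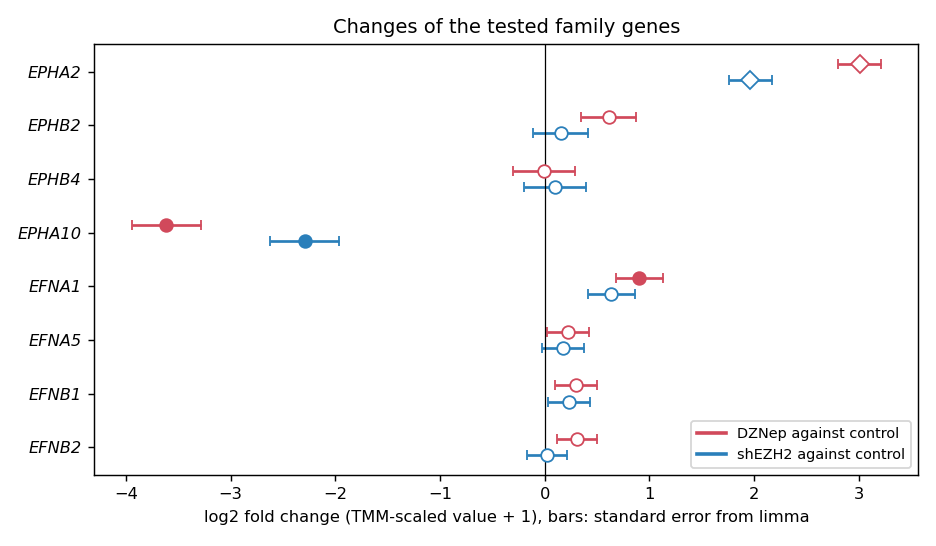
Log2 fold changes against control (horizontal axis, TMM-scaled value + 1) of the 7 members that passed the filter and EPHA10, in red for DZNep and blue for shEZH2, with bars for the standard error from limma. Filled circles passed an adjusted p of 0.05, open circles did not, and diamonds mark EPHA2, shown without a test at 3.01 and 1.97. EPHA10 lies on the other side of 0 at -3.62 and -2.29.

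EPHA10, a receptor of the same family whose kinase domain lacks activity, was far lower with both treatments. It was the only tested gene of 12 further family genes, of which 8 had values in the table. It lies on chromosome 1 (chr1:37713880-37765133, minus strand) and was listed at 17 and 14 in Ctrl, 0 and 1 with DZNep, and 3 and 2 with shEZH2. The groups did not overlap, and their order was the reverse of that of EPHA2. On the log2 scale EPHA10 fell by 3.62 with DZNep (SE 0.33, adjusted p = 0.00022 from limma) and fell by 2.29 with shEZH2 (SE 0.33, adjusted p = 0.013 from limma). Because the treated values are so low, rounding alone allows a log2 ratio of means from -6.21 to -4.05 with DZNep and from -3.07 to -2.39 with shEZH2. These ranges were computed without the 1 added to each value in the fit, so the fitted changes lie outside them. A pseudocount of 5 gave -1.95 and -1.49. EPHA10 passed the filter only through its control samples, where it was higher, and without either control sample it could not be tested. In the fit with no filter on low values its adjusted p from limma was 0.00064 with DZNep and 0.025 with shEZH2. Without shEZH2 replicate 2 the shEZH2 change had an adjusted p of 0.062. In the direct comparison EPHA10 was higher with shEZH2 than with DZNep (1.32, SE 0.33, adjusted p = 0.046 from limma), a call lost in 7 of 13 alternatives, among them the fit with no filter (adjusted p = 0.071).

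The remaining family genes were at or near the floor of the table. EPHB1 was listed at 3 and 3, 5 and 6, and 4 and 4 in Ctrl, DZNep and shEZH2, with every treated sample above control. EPHB6, the other receptor without kinase activity, was listed at 5 and 3, 3 and 3, and 2 and 2. EFNB3 lay between 4 and 6, EFNA3 between 2 and 3, and EPHA5, EPHA6 and EPHA7 between 0 and 1. EPHA1, EPHA3, EPHA8 and EFNA2 were not listed under these names in the matrix.

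EPHA2 and EFNA1 lie on the same chromosome but far apart. EFNA4, EFNA3 and EFNA1 form a cluster on chromosome 1 that spans 71163 bases (chr1:155063737-155134899), with a gap of 9284 bases between EFNA4 and EFNA3 and of 40338 bases between EFNA3 and EFNA1. In this cluster EFNA1 was called higher with DZNep, while EFNA4 and EFNA3 were too low for the test. A readthrough gene joins EFNA4 and EFNA3 in the annotation, so their reads may be shared. Beside EPHA2, the nearest tested genes were ARHGEF19, 41785 bases away, and ZBTB17, 148205 bases away. ARHGEF19, a guanine nucleotide exchange factor, had values of 13 and 8, 14 and 10, and 12 and 11 in Ctrl, DZNep and shEZH2, with limma giving log2 fold changes of 0.13 (adjusted p = 0.77) and 0.10 (adjusted p = 0.85). ZBTB17, which encodes the transcription factor MIZ-1, had values of 34 and 27, 67 and 61, and 45 and 43. It rose with DZNep by 0.98 (SE 0.22, adjusted p = 0.0096 from limma), and its shEZH2 value of 0.47 did not pass (adjusted p = 0.21 from limma).

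The 250 bases upstream of the start site are shown for EPHA2, for EFNA1, the member called with DZNep, and for EPHB4, whose values did not separate the groups. They are RefSeq sequences of GRCh38.p14, written 5′ to 3′ on the strand of the gene. Their positions are chr1:16156070-16156319 on the minus strand for EPHA2, chr1:155127626-155127875 on the plus strand for EFNA1 and chr7:100827524-100827773 on the minus strand for EPHB4. Capitals mark the GC box (GGGCGG on either strand, where neighbouring matches may overlap) and, in EPHA2, the cAMP response element or CRE (TGACGTCA).

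EPHA2: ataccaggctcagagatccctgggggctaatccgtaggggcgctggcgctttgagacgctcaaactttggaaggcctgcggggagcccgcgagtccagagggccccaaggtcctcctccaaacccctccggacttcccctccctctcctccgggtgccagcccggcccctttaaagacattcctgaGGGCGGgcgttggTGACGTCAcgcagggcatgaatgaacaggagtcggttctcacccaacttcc
EFNA1: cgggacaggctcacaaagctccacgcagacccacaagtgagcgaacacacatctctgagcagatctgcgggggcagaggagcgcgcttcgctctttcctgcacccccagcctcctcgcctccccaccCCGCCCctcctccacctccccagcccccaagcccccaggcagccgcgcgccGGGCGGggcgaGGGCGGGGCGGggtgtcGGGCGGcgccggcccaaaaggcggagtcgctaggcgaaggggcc
EPHB4: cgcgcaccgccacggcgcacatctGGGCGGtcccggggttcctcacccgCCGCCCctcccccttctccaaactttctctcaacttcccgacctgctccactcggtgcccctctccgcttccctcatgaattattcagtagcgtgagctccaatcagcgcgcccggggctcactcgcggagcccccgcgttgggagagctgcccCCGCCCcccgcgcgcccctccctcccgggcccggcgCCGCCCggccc

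The promoter of EPHA2 held 1 GC box, 58 bases before the start site, and 1 CRE, 43 bases before it, with a GC content of 63.2% and 15 CpG dinucleotides. That of EFNA1 held 5 GC boxes, with 73.2% GC and 24 CpG, and that of EPHB4 held 4 GC boxes, with 72.8% GC and 29 CpG. All 10 members matched an entry, with GC contents from 43.2% to 84.8% and 9 to 42 CpG, where the median of 27305 promoters of the same length was 58.0% and 11. The GC box was found in 10 of 10 members and in 42.3% of all promoters. The CCAAT box (CCAAT) was in 5 members and 33.0% of all promoters, and the TATA box (TATAAA) in 1 member, EFNB2, and 11.1%. EPHA2 was the 1 member with the CRE, which 1.77% of all promoters held. No member held the AP-1 motif TGANTCA, found in 6.6% of promoters, or the consensus of NF-kB, found in 9.57%, in this window. Both strands were searched for every motif, and a match is a description of the letters, not evidence of a bound factor.

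The genes whose pattern over the 6 samples was nearest to that of EPHA2 were NFKBIA, TNF, INF2, ISG15 and STC2. Likeness was the Euclidean distance between log2 values after removing the mean of each gene, over 6646 genes whose mean was 20 or more, and the median distance to EPHA2 was 3.1. NFKBIA, the inhibitor of NF-kB that NF-kB itself induces, was nearest at 0.332, with values of 138 and 125 in Ctrl, 1006 and 968 with DZNep, and 440 and 429 with shEZH2. TNF, the cytokine, followed at 0.413, with values of 6 and 3, 44 and 47, and 22 and 20. INF2, a formin that acts on actin, was at 0.518, ISG15, a ubiquitin-like protein induced by interferon, at 0.573, and STC2, a secreted glycoprotein, at 0.579. All 5 had the order control, shEZH2, DZNep with no overlap between groups, which is the pattern they were picked for.

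**Figure D3:**
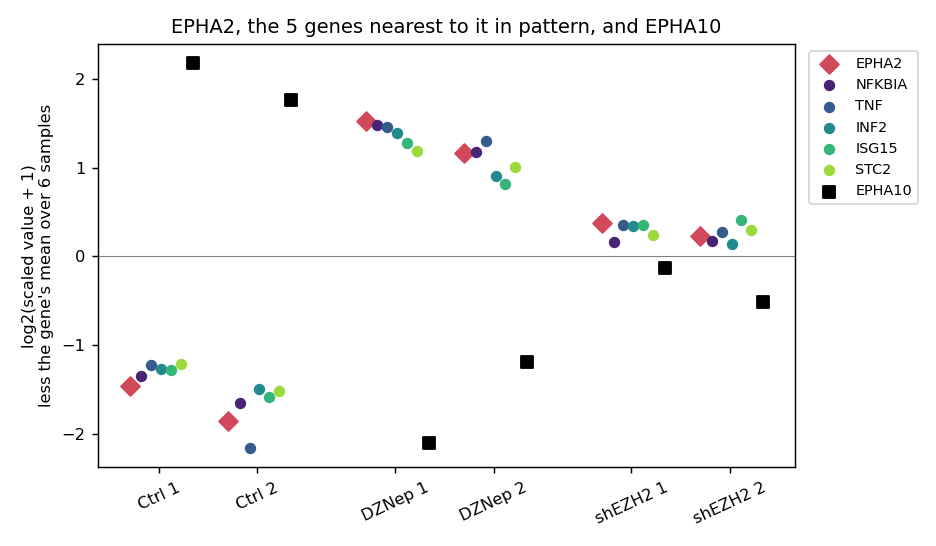
Log2(TMM-scaled value + 1) less the mean of each gene over the 6 samples (vertical axis) for EPHA2 (diamonds), the 5 genes nearest to it in pattern (circles) and EPHA10 (squares), in each of the 6 samples. EPHA2 and its 5 nearest genes lie below 0 in both control samples, above it in the shEZH2 samples and highest in the DZNep samples, whereas EPHA10 is highest in control.

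For EFNA1, the tested member with the next largest change, the nearest genes were KCTD2 at 0.0942, WBSCR16 at 0.11, KEAP1 at 0.111, PVR at 0.115 and HLA-B at 0.117, where the median distance over 6647 genes was 1.11. KEAP1, the adaptor that targets NRF2 for degradation, had values of 70 and 62 in Ctrl, 134 and 122 with DZNep, and 102 and 102 with shEZH2. PVR, a cell surface molecule of the nectin family, had values of 103 and 93, 202 and 187, and 165 and 164.

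The pathway around the receptors was described with a list of proteins that bind or modify activated Eph receptors and a list for the cleavage and reverse signalling of ephrins. Together with the further family genes they held 51 genes, of which 45 were in the table and 35 were tested. With DZNep, 7 of the 35 were called higher and 3 lower, and with shEZH2 1 higher (ABL2) and 2 lower (MMP14 and EPHA10). Between the treated groups, 2 were higher with shEZH2 than with DZNep (MMP14 and EPHA10) and 0 lower. EPHA10, which counts here, was tested only through its control samples. Of all tested genes, limma called 22.3% higher and 20.4% lower with DZNep, and 3.83% higher and 4.53% lower with shEZH2. In the direct comparison it called 4.87% higher and 4.56% lower with shEZH2 than with DZNep. The median log2 fold change of the 35 was -0.05 with DZNep and -0.03 with shEZH2.

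Among 22 tested genes for proteins at the receptor, 5 were called higher and 1 lower with DZNep. Of all tested genes, 22.3% were called higher and 20.4% lower. CRKL, an adaptor that binds exchange factors for small GTPases, had values of 95 and 93 in Ctrl, 211 and 198 with DZNep, and 135 and 135 with shEZH2. It rose with DZNep by 1.04 (SE 0.18, adjusted p = 0.0029 from limma), and its shEZH2 value of 0.47 did not pass (adjusted p = 0.14 from limma). LYN, a kinase of the Src family, rose with DZNep from 11 and 10 to 21 and 25, a log2 fold change of 0.99 (adjusted p = 0.005 from limma), with 15 and 14 in shEZH2 cells. FYN and GRB2, a Src family kinase and an adaptor, were the other two called higher beside ABL2. RASA1, the Ras GTPase-activating protein that binds EphB receptors, was listed at 18 and 35 in Ctrl and 10 and 19 with DZNep. RASA1 was called lower (-0.89, SE 0.31, adjusted p = 0.047 from limma), but its deposited values overlapped between these groups before TMM scaling, and the call was lost in 8 of 15 alternatives.

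ABL2, a kinase that acts on the cytoskeleton and binds EphB receptors, was the gene of the receptor list called with both treatments. It was listed at 101 and 122 in Ctrl, 195 and 243 with DZNep, and 212 and 200 with shEZH2. All treated samples lay above both control samples. ABL2 rose by 0.89 with DZNep (SE 0.15, adjusted p = 0.0026 from limma) and by 0.83 with shEZH2 (SE 0.15, adjusted p = 0.020 from limma), and the treated groups differed by -0.06 (adjusted p = 0.84 from limma). The shEZH2 call was lost without shEZH2 replicate 1 (adjusted p = 0.26) or replicate 2 (adjusted p = 0.23), in the same limma test. In this list 0 of 22 genes were called lower with shEZH2, against 4.53% of all tested genes. In either direction 3 had an unadjusted p under 0.05. Between the treated groups 0 were called by limma, against 9.43% of all tested genes, and 6 had an unadjusted p under 0.05.

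The list of cleavage and reverse signalling had 12 tested genes. With DZNep 2 of them were called higher and 1 lower, against 22.3% and 20.4% of all tested genes. MMP14, a membrane-bound metalloproteinase that cleaves the ectodomain of EPHA2, changed the most. It was listed at 189 and 163 in Ctrl, 44 and 40 with DZNep, and 97 and 87 with shEZH2. The groups did not overlap, and their order was the reverse of that of EPHA2. On the log2 scale MMP14 fell by 2.11 with DZNep (SE 0.20, adjusted p = 0.00028 from limma) and fell by 0.98 with shEZH2 (SE 0.20, adjusted p = 0.029 from limma). In the direct comparison it was higher with shEZH2 than with DZNep (1.13, SE 0.20, adjusted p = 0.018 from limma). The shEZH2 call of MMP14 was lost without Ctrl replicate 1 (-0.79, adjusted p = 0.055), and both it and the direct call were lost without either shEZH2 sample (adjusted p from 0.14 to 0.25), in the same test.

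RGS3, which carries reverse signals of B-class ephrins to G proteins, had values of 53 and 43 in Ctrl, 117 and 105 with DZNep, and 82 and 80 with shEZH2. RGS3 rose with DZNep by 1.13 (SE 0.22, adjusted p = 0.0047 from limma), and its shEZH2 value of 0.70 did not pass (adjusted p = 0.081 from limma). FLOT1, a protein of membrane rafts, was called with DZNep at 0.57 (adjusted p = 0.049 from limma), a call lost in 9 of 16 alternatives. ADAM10, the protease that cleaves ephrins after contact, was listed at 53 and 97 in Ctrl and 37 and 62 with DZNep, and its log2 fold change of -0.64 did not pass (adjusted p = 0.084 from limma).

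Levels were not ranked between genes, because the sources used here do not state whether the values were divided by gene length. Across 12989 genes the Spearman correlation of mean value and transcript length was -0.034.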

How the data were processed

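RNA of 6 OVCAR8 samples was measured by RNA-Seq. Per the labels and the methods of the study, the authors used fastp for trimming, STAR for alignment to GRCh38 and RSEM for quantification with GENCODE v37. The deposited matrix holds a score per gene and sample, a whole number that the authors scaled to a common total and rounded. The number of reads is unknown, so no interval for counting error was computed. Groups and replicate numbers came from the sample titles, and 0 columns of other samples were found.

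The authors compared groups with edgeR. As the values are not counts, limma 3.58.1 (R 4.3.3; lmFit, eBayes with trend, two-sided, Benjamini-Hochberg over all tested genes) was used on log2(value + 1) after unweighted TMM scaling (30% of log ratios and 5% of mean values trimmed). All 6 samples entered 1 fit, and genes had to be listed at 10 or more in 2 or more samples. The test was first tried on simulated data with equal and independent noise in every sample. That trial does not cover the unequal and partly shared replicate deviations of these data.

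The members and gene lists were chosen with earlier results of these data known, and EPHA2 is given without a test. Named genes were the 10 members, EZH2, up to 4 called genes per list and contrast by size of change, and the 5 genes nearest in pattern to EPHA2 and to the tested member with the next largest change. The other family genes, FYN, GRB2, ADAM10 and the neighbours of EPHA2 were named outside this rule, after their values were seen. The lists covered further family genes, proteins at the receptor, cleavage and reverse signalling, and markers of 4 tissues. A further pathway list is not reported here. Gene positions came from GENCODE v44, promoters from RefSeq. For genes with 2 promoter entries the first was used. The alternatives, 17 in number, were other scalings, filters and pseudocounts, limma without trend, only the groups compared, the replicate block, averaged shEZH2 samples, each sample left out in turn and the thresholds of the study. Plots were made in Python 3.11.15 (matplotlib 3.10.9).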

Additional observations from a re-analysis of the deposited data

How the results depend on the processing

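The main limits are 2 samples per group, whole-number rounding of low values and an unknown read depth. Of 279 values of the 6 tested members other than EPHA2 under the alternatives, 263 kept direction and side of the threshold, 2 lost a call, 5 gained one and 9 changed sign. None of the sign changes concerned a called value, and the cause of the changes was not tested. The replicate difference had a standard deviation across genes of 0.428 in Ctrl, 0.447 in DZNep and 0.141 in shEZH2 cells (log2).

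The pathway genes counted here are 52 tested genes and also include those of the pathway list that is not reported. The share of all tested genes called also differed between settings, and in the reported fit it was 42.7% with DZNep, 8.35% with shEZH2 and 9.43% in the direct comparison. With DZNep, the count of members called was 1. It was 2 with the values as deposited (41.4% of all tested genes called) and 2 with no filter (35.5%). It was 0 with a filter at 20 (44%) and 0 under the thresholds of the study (22.3%). The filter also changed which members were tested. EFNA1, listed at 19 at most, could not enter with a filter at 20, and with no filter the lower members entered too. With single samples left out, the log2 fold change of EFNA1 with DZNep lay between 0.69 and 1.12. The 14 pathway genes called became 5 under the thresholds of the study (22.3% of all tested genes) and 9 to 20 with each sample left out (30.5% to 46.1%). With shEZH2, the 3 pathway genes called became 6 with the values as deposited, 5 with only the groups compared, 1 with the shEZH2 samples averaged, 1 under the thresholds of the study (5.29% of all tested genes) and 0 to 5 with each sample left out (0.363% to 15.9%). In the direct comparison EPHA2 is not counted, because it is described without a test. The 2 pathway genes became 1 with no filter (5.35% of all tested genes), 1 with a filter at 20 (10.3%) and 1 with a pseudocount of 5 (9.67%). With single samples left out, the log2 difference of MMP14, 1 of these genes, lay between 0.97 and 1.32.

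When replicate number entered as a block, the pathway genes called were 24 with DZNep, 8 with shEZH2 and 6 in the direct comparison. The members called, EPHA2 left out, were 2 with DZNep and 1 with shEZH2. The block raised the share of all tested genes called to 56.2%, 28.7% and 26.8%. Deviations from the group means had a correlation across genes of 0.786 between Ctrl and DZNep, -0.0241 between Ctrl and shEZH2 and -0.0383 between DZNep and shEZH2, so equal numbers deviated together in Ctrl and DZNep cells but not in shEZH2 cells. No label says that a number marks a shared culture or day, and the samples were not treated as paired.

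The sign changed for EPHB4 with DZNep, at 0.0615 with the values as deposited and -0.425 to 0.41 with each sample left out. With each sample left out it also changed for EPHB2 (-0.128 to 0.44), EPHB4 (-0.175 to 0.369) and EFNB2 (-0.0509 to 0.0937) with shEZH2, and in the direct comparison for EPHB4 (-0.278 to 0.522), EFNA5 (-0.136 to 0.0639) and EFNB1 (-0.231 to 0.134). Of 277 values of the named list genes, 234 kept direction and side of the threshold, 35 lost a call, 8 gained one and 0 changed sign. EZH2 lost its DZNep call in 6 and its shEZH2 call in 3 of 16 alternatives.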
